A study of Mus musculus with 10 samples.

Results

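PRDM14 peaks at and around the Prdm14 gene are described here, from a chromatin immunoprecipitation (ChIP-seq) experiment in mouse embryonic stem (ES) cells. The peaks were chosen by position: all those of chromosome 1 whose peak position lay from 12950 to 13250 kb (mm9), a window of 300 kb around Prdm14, which lies at about 13100 to 13120 kb. The window held 5 of the 3608 peaks in the deposited list. They are numbered 1 to 5 here in order of coordinate. The window and its gene were picked with the heights of these peaks known, so their number, heights and crowding are given as a description, without a test.

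PRDM14 is a DNA-binding protein with a PR domain and zinc fingers, found in pluripotent cells and in primordial germ cells. In mouse ES cells it helps to maintain naive pluripotency, and it is known as a repressor that works together with Polycomb repressive complex 2. A factor that occupies sites near its own gene is described as a candidate for autoregulation, but occupancy alone does not show an effect on transcription.

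The peaks came from Prdm14-/- ES cells of strain C57BL/6 that had been rescued by AVI-EGFP-Prdm14, a tagged fusion named AGP14. Chromatin was fixed with 1% formaldehyde for 5 min and pulled down with an antibody against GFP. The bound protein was therefore the introduced fusion, and the endogenous gene beside the peaks was a knockout allele. The labels do not say which part of Prdm14 the allele lacks, what drives the fusion or how many clones were used. The series has 10 libraries, 6 immunoprecipitated and 4 input, each alone in its group: the rescue with the fusion, a rescue with EGFP only, and H3K27me3 (the mark of Polycomb repressive complex 2), SUZ12 (a subunit of that complex) and input from Prdm14+/+ and Prdm14-/- cells. Only the GFP library of the fusion rescue was analysed here. No level at Prdm14 was set here against EGFP-only cells or an input. The deposited enrichment is a ratio, but its reference is not named. There was no replicate, and no label or header states the read depth.

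PRDM14 peaks at Prdm14 lay almost all on one side of the gene. Peaks 1 to 4 had coordinates below the gene and only peak 5 fell within its span as given above. Prdm14 is read toward lower coordinates in mouse, so the side with 4 peaks is that of its 3′ end. Since the gene's ends are rounded to 10 kb, each distance from them can be off by up to 5 kb.

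Peak 3, the tallest of the 5, spanned 13074380 to 13076049 on chromosome 1 (mm9), about 25 kb beyond the lower end of the gene. Its height was 1226 reads. Height is the maximum of the immunoprecipitation within the interval in the deposited table. It is a whole number in each peak and is taken here as a pileup of reads. It carries an exact 95% Poisson interval of 1158.3 to 1296.6 reads, which covers counting error only. The interval takes this maximum as a plain count and does not allow for its choice as the highest point. No other peak of the whole list was as tall, but the second was close.

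That second peak, on chromosome 8 at 93374980 to 93376469, reached 1155 reads (1089.3 to 1223.6). The third, on chromosome 5 at 127235010 to 127236309, reached 1131 reads (1066.0 to 1198.9). The fourth, on chromosome 6 at 70913550 to 70916249, reached 1109 reads (1044.7 to 1176.2). The interval of peak 3 overlapped those of all 3. Overlap of separate intervals does not test a difference, so the order of the first 4 heights is given as observed and was not tested. On chromosome 1 the gap was wider. The next tallest peaks of the chromosome rose to 828 reads (772.6 to 886.4) at 154789520 to 154790879 and to 734 reads (681.9 to 789.1) at 90565000 to 90566599. Neither interval reached that of peak 3. Like the other comparisons of intervals here, this is a description and no test, since the window was picked with its heights known.

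Peak 4, nearest to the gene among the 4 outside it, spanned 13093630 to 13094989, about 6 kb beyond the lower end. Its height was 245 reads (215.3 to 277.7), at rank 301 of the list, so that 91.6% of all peaks were lower. It was the second tallest at the locus, and peak 3 was 5.0 times as high. The intervals of the pair lay far apart.

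The other 3 peaks were of ordinary height for the list, whose median was 83 reads. Peak 1, at 13064500 to 13065379 and about 35 kb below the gene, had a height of 91 reads (73.3 to 111.7). Peak 2, at 13071180 to 13071949 and about 28 kb below, had 79 reads (62.5 to 98.5). Peak 5, at 13117830 to 13118579, had 67 reads (51.9 to 85.1). The intervals of these 3 heights overlapped, and each lay wholly below that of peak 4.

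Peak 5 was the only one within the rounded span of the gene. Its peak position was about 2 kb inside the rounded upper end of Prdm14, the end at which transcription starts. It was about 18 kb from the lower end. With ends rounded to 10 kb, whether it covers the promoter, lies in the gene or lies just upstream cannot be told. It was the lowest of the 5 peaks, with 68.3% of all peaks at or above its height, and peak 3 was 18.3 times as high.

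**Figure D1:**
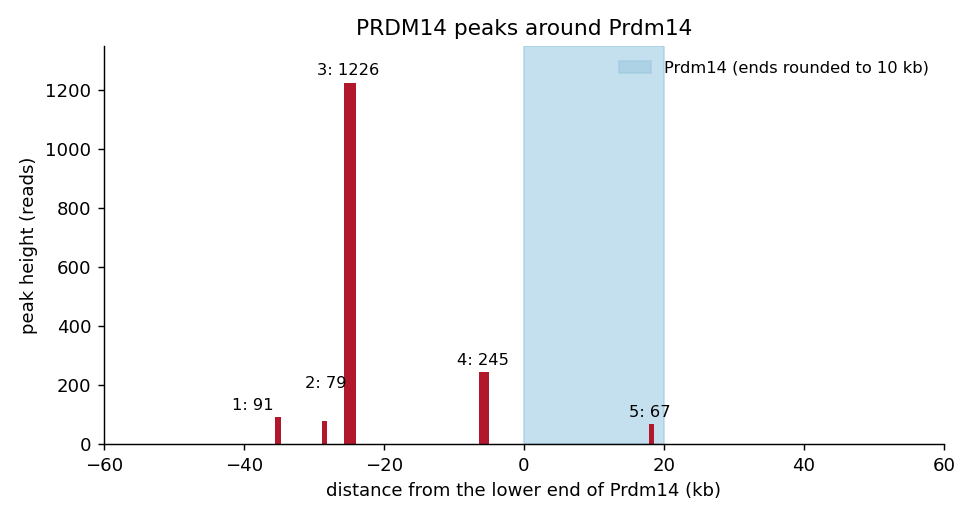
Height of each PRDM14 peak (reads) against distance from the lower end of Prdm14 (kb, ends rounded to 10 kb); each bar is as wide as the deposited interval, is labelled with peak number and height, and the blue band is the gene. Peak 3 reaches 1226 reads about 25 kb outside the gene, peak 4 reaches 245 reads about 6 kb outside it, and peak 5, within the band, reaches 67 reads.

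Of the summed height of the 5 peaks, 1708 reads, peak 3 alone held 71.8% and peak 4 held 14.3%. Peaks 1, 2 and 5 held 5.3%, 4.6% and 3.9%. The median of 91 reads thus describes peak 1 rather than the locus. Above the list's median height lay 3 of the 5 peaks, against 49.3% of all peaks, and above its median width 3 of 5, against 49.2%. These shares are near those of the list, and what set the locus apart in the values was peak 3 and, less so, peak 4.

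The 5 peaks were crowded into 53.13 kb, whereas the rest of the window was empty. Peaks 1 and 2 were 6.77 kb apart, peaks 2 and 3 were 3.3 kb apart, peaks 3 and 4 were 19.15 kb apart, and peaks 4 and 5 were 23.91 kb apart, all from peak position to peak position. The closest edges, those of peaks 2 and 3, left 2431 bp between the intervals. DNA had been sheared to about 150 bp on average, so this gap is many fragments long.

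No peak lay in the 114.9 kb from the lower edge of the window to peak 1, or in the 132 kb from peak 5 to the upper edge. The first peak outside on the lower side, at 12734420 to 12735389 with 66 reads, was 330 kb from peak 1. The first on the upper side, at 14176550 to 14177189 with 53 reads, was 1058.8 kb from peak 5. The window's edges therefore cut through no group of peaks.

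In the RefSeq annotation of mouse (GRCm38), Slco5a1, a member of the organic anion transporter family, is the nearest protein-coding gene on the lower side of Prdm14. The pseudogene Gm5250 and the long noncoding RNA gene Gm39592 lie between them. Ncoa2, a nuclear receptor coactivator, is the next gene on the upper side. The annotation is of another build than the peaks, so it gives the order of the genes only, and peaks 1 to 4 were not placed relative to Gm5250 or Gm39592. None of peaks 1 to 4, the tallest included, is thus assigned to Prdm14 or to a neighbouring gene.

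Against its surroundings the locus stood out in density. The window held 16.7 peaks per Mb (exact 95% Poisson interval 5.41 to 38.9). The remaining 4.7 Mb of chromosome 1 from 10 to 15 Mb held 11 peaks, or 2.34 per Mb (1.17 to 4.19). Chromosome 1 as a whole held 249 peaks, or 1.27 per Mb up to its last peak (1.12 to 1.44). The intervals cover counting error only and treat neighbouring peaks as independent, which they are not, and the window had been chosen for its peaks.

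The 11 surrounding peaks were all low. Their heights ran from 51 to 142 reads with a median of 66, against 67 to 1226 with a median of 91 at Prdm14. The tallest of the 11, at 11491480 to 11492489, reached 142 reads (119.6 to 167.4), below both peak 3 and peak 4. Peaks 1, 2 and 5 fell within the range of the surrounding heights. The surrounding peaks were also spread out, with a median of 105.75 kb to the nearest peak, close to the 105.16 kb of the whole list. At Prdm14 that median was 6.77 kb.

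**Figure D2:**
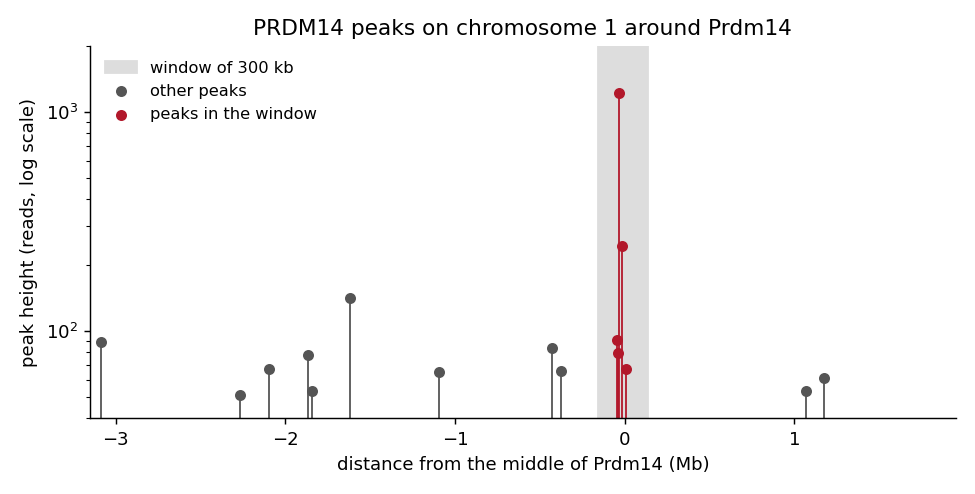
Height of each PRDM14 peak (reads, log scale) on chromosome 1 from 10 to 15 Mb against distance from the middle of Prdm14 (Mb); red points are the 5 peaks in the window (grey band) and dark points the 11 others. Only the peaks of 1226 and 245 reads rise above the tallest of the surrounding peaks, at 142 reads, and the next peak above the window is 1058.8 kb from peak 5.

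Groups as tight as this one were uncommon in the list. A neighbour within 10 kb was found for 3 of the 5 peaks, against 16.2% of all peaks, and a neighbour within 50 kb for 5 of the 5, against 36.4%. Both counts follow from the choice of a crowded window and carry no weight of their own. Of the 3528 runs of 5 successive peaks on a chromosome, 27 spanned 53.13 kb or less. They overlap one another, and at most 12 of them share no peak. The run at Prdm14 was the only one on chromosome 1.

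The run at Prdm14 joined 3 peaks of ordinary height with peaks 3 and 4. Its summed height of 1708 reads was first among the 27 overlapping runs. Their median was 382 reads, which counts peaks shared between runs more than once. Next came 1645 reads in a run of 39600 bp on chromosome 8 that holds the peak of 1155 reads. No interval was computed for these sums, so their order was not settled. The first place rested on peak 3, which held most of the sum. The 3 peaks at 13064905 to 13074975 make a group in which each is within 10 kb of the next, spanning 10.07 kb. Such groups of 3 or more numbered 29 in the whole list.

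With steps of at most 10 kb, the group beside Prdm14 was the most unequal of the 29. Its tallest peak was 13.5 times the second tallest in the group, peak 1. The next most unequal group had a ratio of 5.5, and the median ratio was 1.6. Peak 3 held 87.8% of the summed height of its group, against a median of 47.5%. Among the 266 groups of 2 or more, the ratio was second, after a pair on chromosome 10 with 957 and 55 reads and a ratio of 17.4. The tallest peak of any other group of 3 or more rose to 814 reads. These ranks belong to the 10 kb step, and no other step was tried. Peak 4, 19.15 kb from peak 3, falls outside the group, and peak 3 was only 5.0 times as high as peak 4. The peak of 1155 reads on chromosome 8, 21010 bp from its nearest peak, is likewise in no group.

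**Figure D3:**
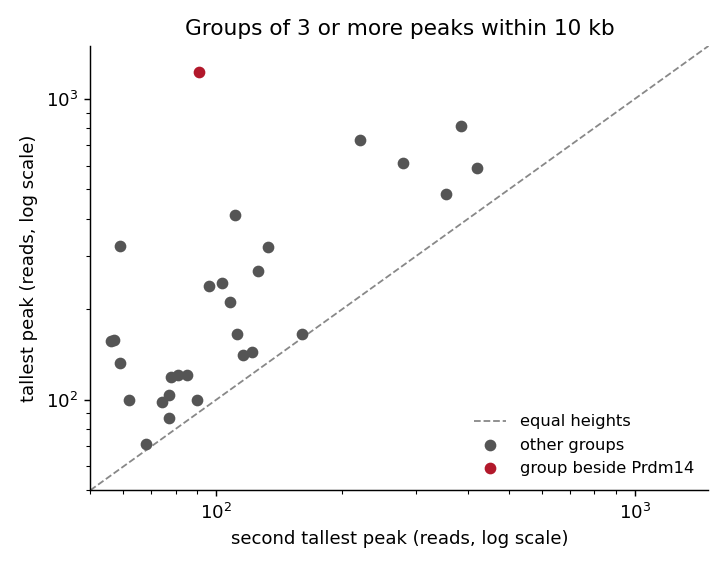
Tallest against second tallest peak (reads, both axes on a log scale) in each of the 29 groups of 3 or more PRDM14 peaks linked by steps of at most 10 kb; the dashed line marks equal heights. The group beside Prdm14 (red), with 1226 and 91 reads, lies farthest above the line.

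The number of peaks around peak 3 depended on the distance. Among the 100 tallest peaks, 46 had another peak within 50 kb, against 36.4% of all peaks, and 54 had none. Peak 3 had 4. Only 3 of the 100, peak 3 included, had that many, and none had more. The other two were the peak of 1155 reads on chromosome 8 and a peak of 810 reads on chromosome 2 at 153447760 to 153449069. Within 20 kb, peak 3 had 3 neighbours, and 2 of the 100, peak 3 again included, had that many. Within 10 kb it had 1, and 29 of the 100 had at least as many, so at this distance peak 3 was not unusual among tall peaks. That count rests on the cutoff: peak 1 lay 10.07 kb from peak 3, just outside it, and the highest count among the 100 was 2.

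Width followed height at Prdm14. Peak 3 was 1669 bp wide (rank 41 of 3608) and peak 4 was 1359 bp wide (rank 146). Peaks 1, 2 and 5 were 879, 769 and 749 bp wide, near the median of 809 bp in the list. Peak 3 was also tall for its width. Its height divided by its width was 0.735 (rank 7), where the median was 0.102. In peak 4 the quotient was 0.180 (rank 520). This quotient uses a maximum and is not a density of reads.

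The highest point lay off centre in 4 of the 5 peaks by more than the list's median of 75.5 bp. A median splits the list evenly by definition, and with only 5 peaks this count was not taken to set the locus apart. The offsets were not scaled to width, and peaks 3 and 4 were the widest of the 5. In peak 3 the peak position was 239.5 bp below the midpoint of the interval, toward lower coordinates. In peak 4 it was 184.5 bp and in peak 5 169.5 bp below the midpoint. Peak 1 was nearly centred, 34.5 bp below, and peak 2 had its highest point 110.5 bp above the midpoint.

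Peak 3 did not lead by the authors' enrichment, a ratio in the deposited table whose reference is not named there. Its enrichment of 216.2 was at rank 151. Among the 100 tallest peaks 53 had an enrichment at least that high, peak 3 included, and the median was 223.9. Peak 4, much lower in height, had an enrichment of 148.8 at rank 339. The difference between peaks 3 and 4 was therefore 5.0-fold in height but 1.45-fold in enrichment.

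Enrichment was below the list's median of 55.8 in the other 3 peaks. It was 33.2 in peak 1, 48.0 in peak 2 and 28.1 in peak 5. Above the median were 2 of the 5 peaks, against 50.0% of all peaks. By this measure peak 5, within the rounded span of the gene, was again the lowest of the 5, at rank 2908. Among the 11 surrounding peaks the enrichment ran from 21.1 to 98.4, a range that holds peaks 1, 2 and 5 and that peaks 3 and 4 exceed.

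Enrichment and height ordered peaks 1 and 2 differently. The largest quotient of enrichment and height on chromosome 1 was 1.17, and dividing each enrichment of the locus by this factor gave simple fractions. Peak 2 gave 41, peak 4 gave 127 and peak 5 gave 24. Peak 1 gave 85 over 3, and peak 3 gave 369 over 2. These fractions are in lowest terms, so their lower numbers need not be read counts of a control.

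Set against height, the rescaled enrichment of peak 3 was 15.0% of its height, where 100% would be the quotient that set the factor. Peak 4 reached 51.8%, peak 2 51.9%, peak 5 35.8% and peak 1 31.1%, where the median of the list was 48.7%. By this share peak 3 was at rank 3505 of the 3608 peaks, near the bottom of the list. Over the 100 tallest peaks the median share was 30.7%, and 13 of them, peak 3 included, were at or below 15.0%. The third tallest peak, on chromosome 5, had 11.1%, whereas the fourth, on chromosome 6, had 64.4%. Whether reads in the control set the low share of peak 3 was not tested.

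**Figure D4:**
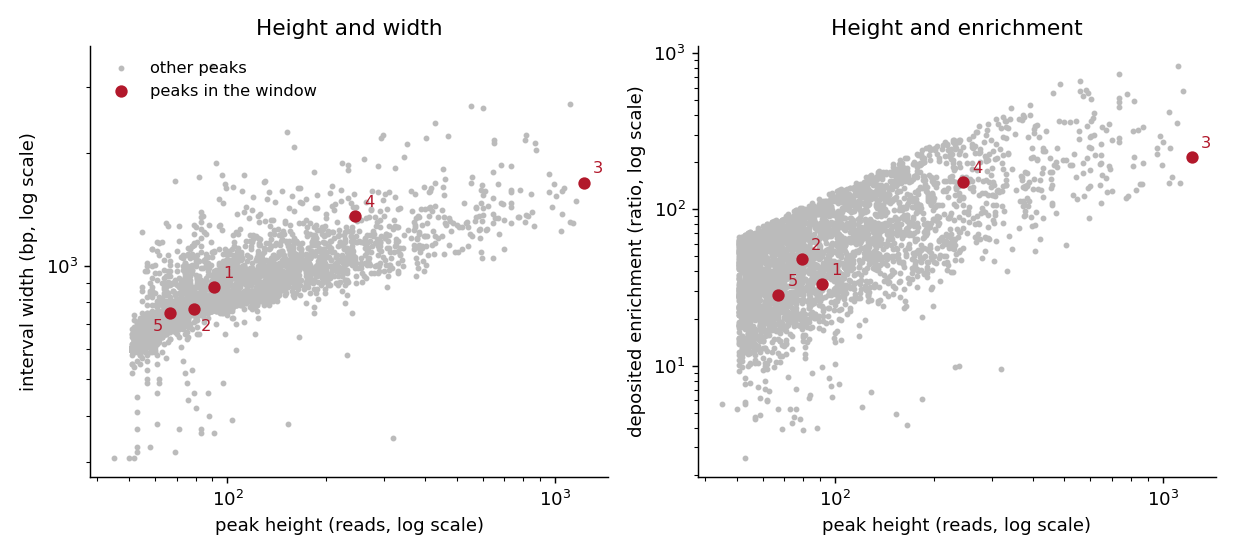
Interval width (bp, left) and deposited enrichment (ratio, right) against peak height (reads) for all 3608 PRDM14 peaks, all axes on a log scale; red points with numbers are the 5 peaks at Prdm14. Peak 3 lies at the far right in both panels, and its enrichment of 216.2 is near the median of the 100 tallest peaks, 223.9.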

How the data were processed

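The labels assign 10 libraries to 10 groups of 1. Both deposited files belong to the GFP immunoprecipitation of the AVI-EGFP-Prdm14 rescue. The authors deposited a peak table with an enrichment (ratio), a maximum of the immunoprecipitation (signal, whole numbers), a width, and a flag, a score of 3 in every peak that was not used, per the file headers. Coordinates are on mm9, per the submitters' processing notes. For the aligner, the peak caller, the control and the depth, nothing is given in the sources used here. Positions are printed as deposited. The deposited BED list held 3608 intervals, with all 5 at Prdm14 among them (overlap of at least 1 bp).

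Ranks were taken over the whole list (1 is the highest). Intervals of heights and densities are exact Poisson at the 95% level, cover counting error only and take reads as independent molecules. Those of heights also take a maximum as a plain count. Groups join peak positions at most 10 kb apart. The chromosome factor is the largest quotient of enrichment and height, and fractions were read with a tolerance of 0.001 and a denominator of at most 60. The functions were tested on a simulated list. The peaks were chosen with earlier results of these data known, as were the measures shown. All peaks of the window are named, with the next 3 by height, the tallest other from 10 to 15 Mb and the neighbouring protein-coding genes. Features outside this rule (the nearest peaks outside, the next 2 of chromosome 1, the pair on chromosome 10, the 810-read peak, Gm5250, Gm39592) were chosen after their values were seen. Sequence at the peaks and the Prdm14 promoter are not shown. Values were computed in Python 3.11.15 with pandas 2.3.3, SciPy 1.17.1 and NumPy 2.4.6, and drawn with matplotlib 3.10.9.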

Additional observations from a re-analysis of the deposited data

How the results depend on the processing

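Of 17 alternatives, none of which has a test, 6 left the value as reported or a count within 1.5 times of it. The locus held 5 peaks within 50 kb of the gene and after merging gaps under 1 kb, and 7 within 500 kb. Only 3 of the 5 were at or above the list's median height and 2 at or above its median enrichment. The median height of 91 reads became 85 without the tallest peak and 84 within 500 kb. The median enrichment of 48.0 became 40.6 without the tallest peak and 41 when divided by the factor of chromosome 1. The median width of 879 bp became 824 bp without the tallest peak. The density of 16.7 per Mb became 94.1 per Mb over the span of the peaks, by construction. The tallest peak was first by height in the list and on chromosome 1, at rank 151 by enrichment and at rank 41 by width. Its distance from the gene is 25 kb to the near end and 45 kb to the far end. No paired analysis was possible because no group has a second library, and no replicate could be left out.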
